A study of Mus musculus with 12 samples.

Results

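Growth factor receptor tyrosine kinases were followed here by 10 genes taken by symbol from the panel of 770 genes: *Egfr*, *Erbb2*, *Met*, *Fgfr1*, *Fgfr2*, *Fgfr3*, *Fgfr4*, *Pdgfra*, *Pdgfrb* and *Kit*. The choice followed the names of the genes and was made with earlier results of these data known. They were measured by NanoString®, which counts colour-coded probes hybridised to RNA without amplification, in 12 samples of 2 mouse liver cancer lines, 3 per group and described as biological replicates. AKT/NRAS came from hepatocellular carcinoma raised in a mouse liver by hydrodynamic injection of a floxed, myristoylated AKT and of mutant NRAS, and AKT/NRAS Cre (AKT Cre/NRAS in the study) is its derivative from which Cre recombinase removed the AKT construct, so that all groups carry the NRAS construct. Each line received a pool of *Dusp4* siRNA or a negative control pool (SCR), giving AKT/NRAS Cre siRNA, AKT/NRAS Cre SCR, AKT/NRAS siRNA and AKT/NRAS SCR. The transfection was repeated before the harvest. Every line difference compares 1 line with 1 derivative, and whether the derivative is a single clone is not given in the sources used here.

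These receptors span the cell membrane. A growth factor on the outside pairs 2 receptor molecules, the kinase domains inside phosphorylate each other, and adaptor proteins that bind the phosphorylated tails switch on RAS and ERK as well as PI3K and AKT. Both lines therefore carry, as an oncogene, a protein that lies downstream of the receptors. In the liver, EGFR and MET carry the proliferative signals of regeneration, FGFR4 is the hepatocyte receptor for the bile acid hormone FGF15, and PDGFRA, PDGFRB and KIT are better known from mesenchymal or progenitor cells. DUSP4, a nuclear phosphatase that inactivates MAP kinases, acts at the far end of the same route.

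The recovered probe counts above the floor summed to 641790 to 1081646 per sample. Every deposited value at or under 20 had been set to 20, and after scaling to 15 reference genes a common floor of 27.1 normalized counts was used, so a value at the floor is an upper limit and not a level. Between 252 and 293 of 770 genes stood at the deposited floor in a sample. The targeted genes followed the labels. *Akt1* had 531.3 to 587.2 normalized counts in AKT/NRAS Cre siRNA and 336.7 to 431.6 in AKT/NRAS Cre SCR, against 18170 to 18566 in AKT/NRAS siRNA and 19259 to 20228 in AKT/NRAS SCR. *Dusp4* was lower after siRNA in both lines (log2 fold change -0.45 in AKT/NRAS Cre and -1.73 in AKT/NRAS, limma adjusted p = 0.0178 and 1.13e-06). The fall in AKT/NRAS Cre passed in 5 of 8 scalings only, and it no longer passed without SCR replicate 2 or siRNA replicate 1 or 3. It ran from -0.60 to -0.35 over the libraries left out. The 3 AKT/NRAS Cre SCR libraries stood apart, with a log2 ratio of *Rpl19* to *Polr2a* of 5.48 to 6.88, against 4.72 to 5.03 in AKT/NRAS Cre siRNA. The ratio was 3.86 to 3.92 in AKT/NRAS siRNA and 3.81 to 3.87 in AKT/NRAS SCR. *Rpl19* is 1 of the 15 reference genes used for the scaling, while *Polr2a* was not kept among them. Of the 8 receptors above the floor in at least 1 sample, all 8 had their lowest AKT/NRAS Cre SCR value in replicate 3, the library with the highest ratio. In such bulk samples fewer cells that express a gene and less RNA per cell cannot be told apart. Of the markers of other cell types, *Col1a2*, *Col3a1*, *Kdr* and *Csf1r* stood at the floor in all 12 samples, while mesenchymal *Col1a1* (27.1 to 47.5) and endothelial *Flt1* (238.6 to 1403) were read above it.

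Of the 10 receptors, 6 were above the floor in all 12 samples, 2 (*Fgfr1* and *Fgfr2*) were above it in every AKT/NRAS Cre sample and in no AKT/NRAS sample, and 2 (*Pdgfrb* and *Kit*) were at the floor in all 12 samples and were not tested. The plot of normalized counts by sample shows the 8 that could be read. Levels are compared between groups within a gene only, since probes differ in how they capture their target.

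**Figure D1:**
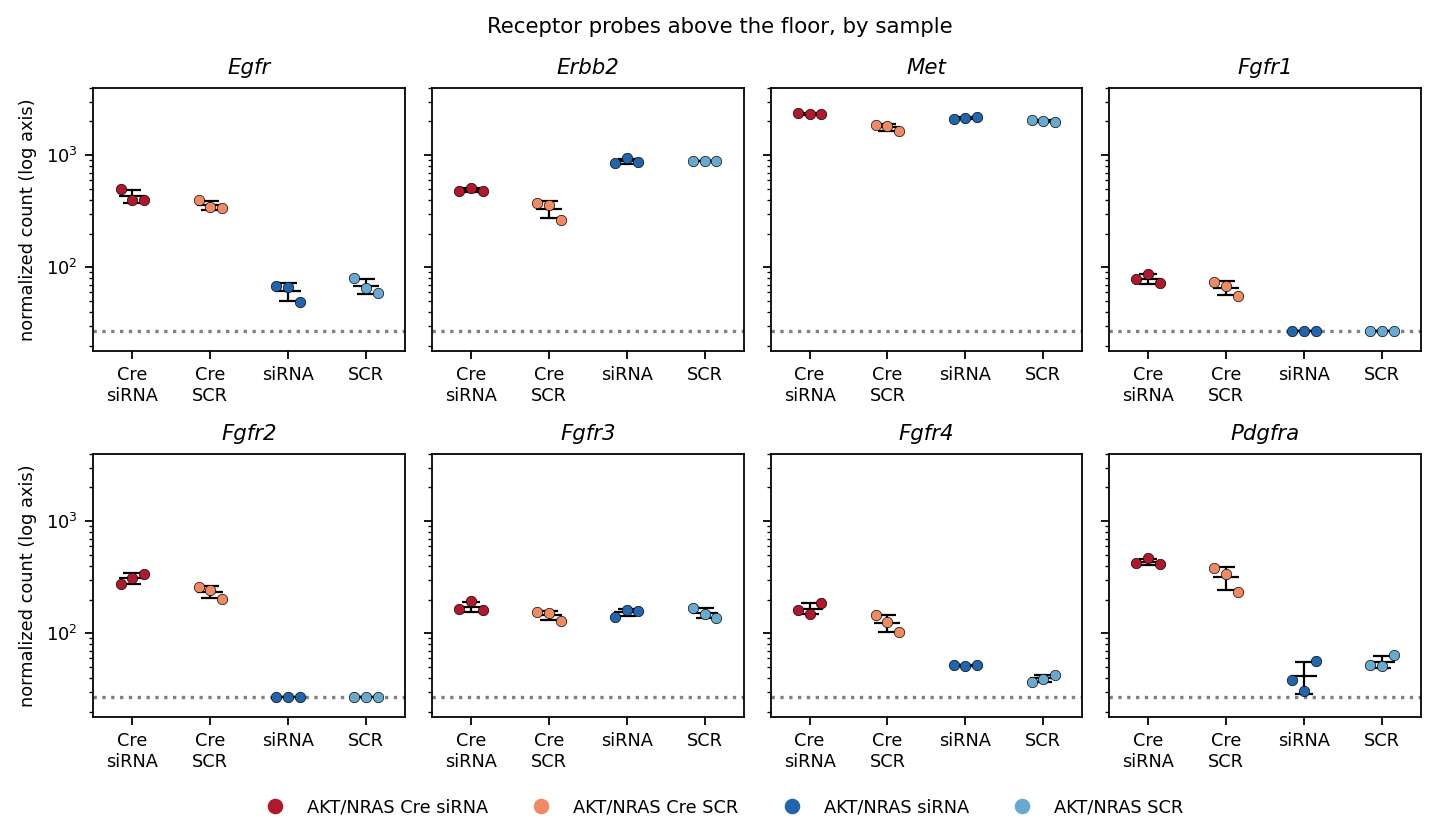
Normalized counts (log axis) of 8 receptors in the 12 samples, with 3 points per group, the mean (short line) and the SD (bars); the dotted line is the common floor of 27.1. *Fgfr1* and *Fgfr2* lay on the floor in all 6 AKT/NRAS samples, *Egfr*, *Fgfr4* and *Pdgfra* were low there, *Erbb2* was high there, and *Met* and *Fgfr3* were close in all 4 groups.

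The first question was how the receptors of AKT/NRAS Cre differ from those of AKT/NRAS, and it was asked under SCR and, in separate libraries, under siRNA. *Egfr*, *Fgfr1*, *Fgfr2*, *Fgfr4* and *Pdgfra* were higher in AKT/NRAS Cre under both treatments, and *Erbb2* was lower under both. *Met* and *Fgfr3* differed little, and under SCR the sign of their difference turned with the scaling. Under SCR 5 of the 8 tested receptors were higher and 1 lower by limma at an adjusted p under 0.05, where 28.9% of the 515 tested genes were higher and 48.0% lower. Under siRNA 6 were higher and 1 lower, where 36.6% of 522 tested genes were higher and 37.9% lower. The groups of 7 of the 8 receptors did not overlap under SCR and 7 of 8 under siRNA, beside 79.8% and 76.6% of tested genes. The median log2 fold change of the tested receptors was 1.43 under SCR and 1.58 under siRNA, beside a median over all tested genes of -0.22 and 0.00. *Fgfr1* and *Fgfr2* are in these counts and medians, and with every AKT/NRAS sample at the floor they could only come out higher.

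Some markers of liver cell types also differed between the lines under both treatments, namely *Spp1*, *Prom1* (near the floor) and *Cebpa*. *Sox9* was higher in AKT/NRAS Cre under siRNA only, and under SCR its groups overlapped. Of 3 biliary or progenitor markers on the panel, *Spp1*, which encodes osteopontin, had 101245 to 115311 normalized counts in AKT/NRAS Cre siRNA and 119863 to 161485 in AKT/NRAS Cre SCR, against 16928 to 19518 in AKT/NRAS siRNA and 14872 to 15529 in AKT/NRAS SCR. *Prom1* was above the floor in the 6 AKT/NRAS Cre samples only (37.9 to 72.5), and *Sox9* had 502.0 to 655.0 in AKT/NRAS Cre siRNA and 304.4 to 453.0 in AKT/NRAS Cre SCR, against 317.6 to 387.6 in AKT/NRAS siRNA and 413.9 to 449.0 in AKT/NRAS SCR. The hepatocyte factor *Cebpa* had 549.0 to 565.5 in AKT/NRAS Cre siRNA and 391.3 to 446.4 in AKT/NRAS Cre SCR, against 671.2 to 779.1 in AKT/NRAS siRNA and 717.0 to 767.5 in AKT/NRAS SCR. The part of these markers in the receptor differences was not tested.

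*Egfr*, the receptor for EGF and TGF-alpha, had 502.1, 399.7 and 401.1 normalized counts in AKT/NRAS Cre siRNA and 399.3, 344.8 and 338.9 in AKT/NRAS Cre SCR. It had 68.6, 66.3 and 48.9 in AKT/NRAS siRNA and 80.2, 66.1 and 59.2 in AKT/NRAS SCR. Every AKT/NRAS Cre sample lay above every AKT/NRAS sample, with a wide gap between the lines. The log2 fold change was 2.39 (SE 0.14, limma adjusted p = 8.76e-07) under SCR, or 5.24-fold, and 2.81 (SE 0.15, limma adjusted p = 2.13e-06) under siRNA, or 7.02-fold. It passed in all 8 scalings, between 1.87 and 2.89 under SCR.

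*Erbb2* encodes HER2, which has no ligand of its own and signals as the partner of the other family members. It had 484.3, 509.2 and 475.3 normalized counts in AKT/NRAS Cre siRNA and 372.0, 360.0 and 266.5 in AKT/NRAS Cre SCR. The values were 850.4, 939.6 and 873.5 in AKT/NRAS siRNA and 885.8, 882.3 and 882.9 in AKT/NRAS SCR. All 6 AKT/NRAS Cre samples were lower than all 6 AKT/NRAS samples, the opposite order to *Egfr*. The log2 fold change was -1.42 (SE 0.13, limma adjusted p = 1.29e-05) under SCR and -0.86 (SE 0.05, limma adjusted p = 4.01e-06) under siRNA, and it passed in all 8 scalings, between -1.94 and -0.92 under SCR. *Erbb3*, whose product is a catalytically weak partner of HER2 and which is not one of the 10, was lower as well (limma adjusted p = 1.16e-05 under SCR and 3.14e-05 under siRNA). Its values were 27.1 to 30.2 in AKT/NRAS Cre siRNA and 27.1 to 29.2 in AKT/NRAS Cre SCR, at or just above the floor, against 60.9 to 80.3 in AKT/NRAS siRNA and 61.5 to 76.3 in AKT/NRAS SCR.

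Among the FGF receptors, *Fgfr1* and *Fgfr2* separated the lines as present or not detectable. *Fgfr2*, whose splice forms bind different FGFs in epithelium and mesenchyme, had 276.7, 313.8 and 340.7 normalized counts in AKT/NRAS Cre siRNA and 260.9, 245.4 and 201.8 in AKT/NRAS Cre SCR. *Fgfr1*, the broadly expressed member of the family, had 78.1, 87.8 and 72.5 in AKT/NRAS Cre siRNA and 73.5, 68.1 and 55.7 in AKT/NRAS Cre SCR. Both were at the floor in all 6 AKT/NRAS samples, so a fold is only a lower bound against the common floor. They entered the tests through their AKT/NRAS Cre values alone. A limma call therefore sets these values against a constant and could only point upward, so no p-value is given. *Fgfr2* was at least 11.4-fold higher in AKT/NRAS Cre under siRNA and at least 8.67-fold higher under SCR. Across the 8 scalings these bounds ran from 10.4 to 16.6 and from 5.84 to 13.4. *Fgfr1* was at least 2.93-fold higher under siRNA and at least 2.41-fold higher under SCR, with bounds of 2.67 to 4.26 and 1.63 to 3.73 over the scalings.

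*Fgfr4*, the FGF15 receptor of hepatocytes, had 161.8, 150.0 and 187.2 normalized counts in AKT/NRAS Cre siRNA and 145.0, 127.2 and 102.6 in AKT/NRAS Cre SCR. It had 52.3, 51.4 and 52.3 in AKT/NRAS siRNA and 36.7, 39.4 and 42.9 in AKT/NRAS SCR, and no 2 of the 4 groups overlapped. The log2 fold change between the lines was 1.62 (SE 0.14, limma adjusted p = 1.08e-05) under SCR and 1.65 (SE 0.09, limma adjusted p = 2.41e-06) under siRNA, about 3-fold, and passed in all 8 scalings. *Fgfr3*, known for its activating mutations in bladder cancer, did not separate the lines. It had 164.0, 192.4 and 161.3 in AKT/NRAS Cre siRNA and 154.5, 151.3 and 129.3 in AKT/NRAS Cre SCR, against 140.8, 161.6 and 158.7 in AKT/NRAS siRNA and 169.0, 149.6 and 138.1 in AKT/NRAS SCR. Its log2 fold change was -0.07 (95% interval -0.35 to 0.21) under SCR and 0.16 (95% interval -0.07 to 0.39) under siRNA, and under SCR it was positive in 4 of 8 scalings.

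*Pdgfra*, a receptor for platelet-derived growth factors and a marker of mesenchymal cells, had 421.8, 467.8 and 414.9 normalized counts in AKT/NRAS Cre siRNA and 380.5, 334.9 and 235.2 in AKT/NRAS Cre SCR. It had 38.4, 30.8 and 56.6 in AKT/NRAS siRNA and 52.2, 51.0 and 63.8 in AKT/NRAS SCR. The lines did not overlap, and the AKT/NRAS values lay just above the floor, on recovered counts of 33 to 66. The log2 fold change was 2.47 (SE 0.18, limma adjusted p = 4.39e-06) under SCR, or 5.53-fold, and 3.39 (SE 0.20, limma adjusted p = 3.46e-06) under siRNA, or 10.4-fold, and it passed in all 8 scalings. *Pdgfrb*, its close relative, was at the floor in every sample. Of the other mesenchymal markers on the panel, *Col1a2* and *Col3a1* were at the floor throughout and *Col1a1* was 27.1 to 45.4 in AKT/NRAS Cre siRNA and 27.1 to 47.5 in AKT/NRAS Cre SCR, against 27.1 to 34.9 in AKT/NRAS siRNA and 29.0 to 40.6 in AKT/NRAS SCR. *Kit*, the receptor for stem cell factor, was at the floor in every sample, while *Kitl*, which encodes that factor, had 1385 to 1497 in AKT/NRAS Cre siRNA and 1245 to 1467 in AKT/NRAS Cre SCR, against 1600 to 1631 in AKT/NRAS siRNA and 1533 to 1644 in AKT/NRAS SCR.

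*Met*, the receptor for hepatocyte growth factor, had 2393, 2310 and 2317 normalized counts in AKT/NRAS Cre siRNA and 1878, 1817 and 1646 in AKT/NRAS Cre SCR. It had 2114, 2162 and 2198 in AKT/NRAS siRNA and 2070, 2008 and 1962 in AKT/NRAS SCR. The order of the lines thus changed with the treatment. The log2 fold change was -0.18 (SE 0.08, limma adjusted p = 0.0578) under SCR and 0.12 (SE 0.03, limma adjusted p = 0.0111) under siRNA. Under SCR it ran from -0.70 to 0.33 over the 8 scalings, and under siRNA, where it was positive in all 8, it passed in 4. *Hgf* itself was at the floor in all 12 samples.

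**Figure D2:**
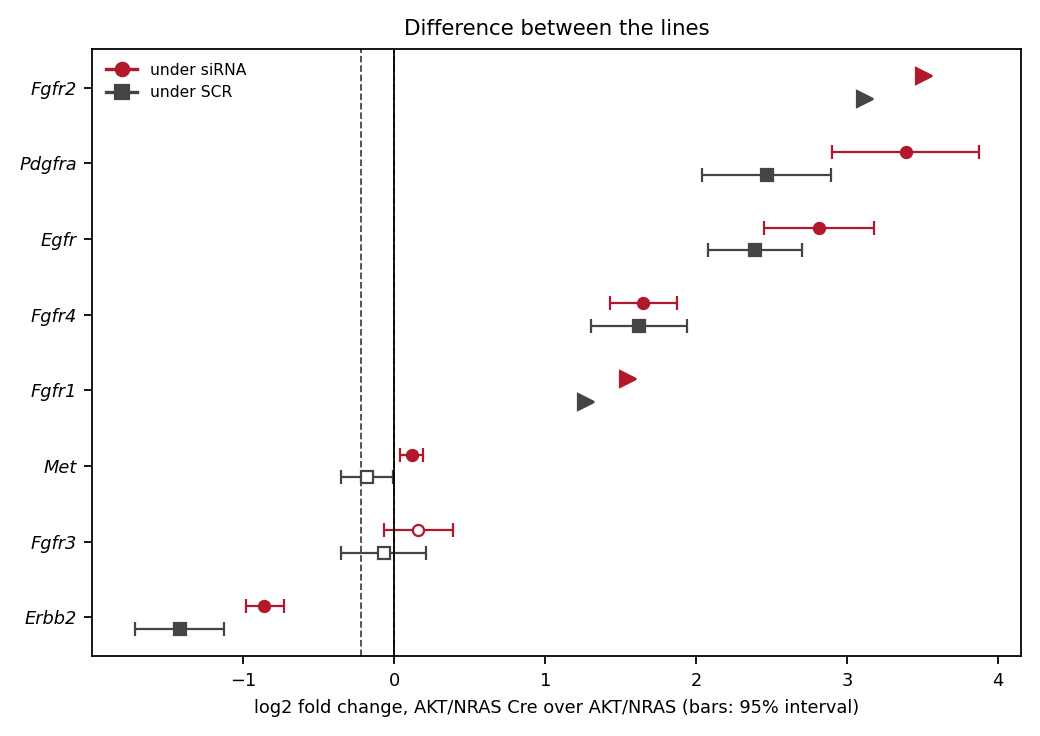
Log2 fold change of AKT/NRAS Cre over AKT/NRAS for 8 receptors, under siRNA (red circles) and SCR (grey squares), with 95% intervals; filled symbols passed limma at an adjusted p under 0.05, triangles are lower bounds against the floor, and dashed lines are the medians of all tested genes. *Egfr*, *Fgfr4*, *Pdgfra*, *Fgfr1* and *Fgfr2* lie to the right of 0 and *Erbb2* to the left under both treatments, at -1.42 under SCR and -0.86 under siRNA.

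A ratio of 2 receptors within a sample is the same under every scaling by 1 factor per sample (7 of the 8 used, all but quantile normalization), so it shows how unequally they changed. The log2 ratio of *Egfr* to *Erbb2* was 0.05, -0.35 and -0.24 in AKT/NRAS Cre siRNA and 0.10, -0.06 and 0.35 in AKT/NRAS Cre SCR, against -3.63, -3.82 and -4.16 in AKT/NRAS siRNA and -3.47, -3.74 and -3.90 in AKT/NRAS SCR. The difference between the lines was 3.69 under siRNA and 3.83 under SCR. Relative to *Met*, the difference was 2.72 under siRNA and 2.59 under SCR for *Egfr*, 3.30 and 2.67 for *Pdgfra*, 1.55 and 1.82 for *Fgfr4*, and -0.97 and -1.24 for *Erbb2*. For *Fgfr3* relative to *Met* it was 0.05 and 0.11, and these groups overlapped, while those of the other ratios did not. The exact two-sided permutation p was 0.10 for each ratio that did not overlap, which is the smallest that 3 samples against 3 can give, and 0.80 and 0.20 for *Fgfr3* to *Met*.

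**Figure D3:**
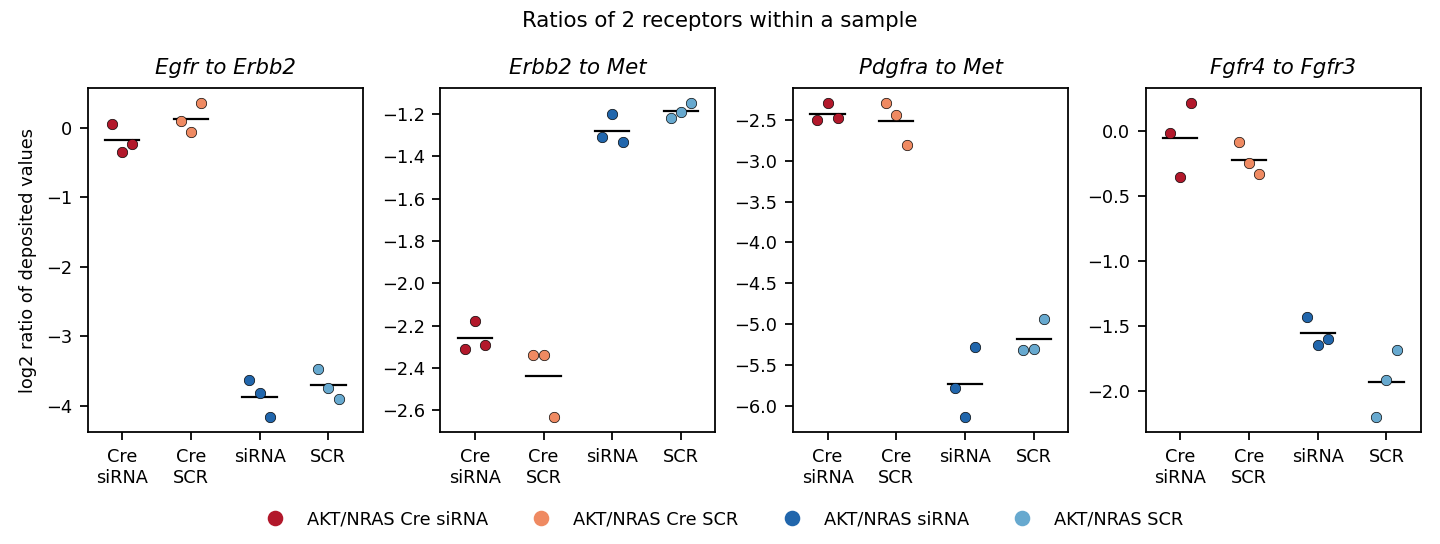
Log2 ratios of the deposited values of 2 receptors within each sample, with 3 points per group and their mean (line). The lines separate in all 4 ratios, for example near 0 in AKT/NRAS Cre and between -3.47 and -4.16 in AKT/NRAS for *Egfr* to *Erbb2*.

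The promoters of the receptors that separated the lines are shown because these genes differed between the lines, each in 1 direction, in both treatments. Promoter windows were kept for 8 of the 10 receptors. Of those with a line difference, *Egfr*, *Fgfr2*, *Fgfr4* and *Pdgfra* are given first and *Erbb2*, the 1 that was lower, last. Each line holds the 250 bases before the annotated start, 5′ to 3′ on the strand of the gene, from RefSeq on GRCm38.p6, and capitals mark GGGCGG or CCGCCC (the GC box on either strand) and TGANTCA (the AP-1 element, which reads as the same pattern on both strands).
Egfr: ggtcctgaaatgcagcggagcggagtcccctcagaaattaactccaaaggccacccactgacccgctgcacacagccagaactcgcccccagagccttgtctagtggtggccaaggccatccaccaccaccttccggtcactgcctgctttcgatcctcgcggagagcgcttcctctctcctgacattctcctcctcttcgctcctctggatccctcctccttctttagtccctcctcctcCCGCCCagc
Fgfr2: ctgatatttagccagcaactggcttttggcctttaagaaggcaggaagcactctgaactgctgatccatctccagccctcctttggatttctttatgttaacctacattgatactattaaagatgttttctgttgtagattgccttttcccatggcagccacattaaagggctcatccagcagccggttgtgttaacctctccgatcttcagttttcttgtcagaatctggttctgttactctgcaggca
Fgfr4: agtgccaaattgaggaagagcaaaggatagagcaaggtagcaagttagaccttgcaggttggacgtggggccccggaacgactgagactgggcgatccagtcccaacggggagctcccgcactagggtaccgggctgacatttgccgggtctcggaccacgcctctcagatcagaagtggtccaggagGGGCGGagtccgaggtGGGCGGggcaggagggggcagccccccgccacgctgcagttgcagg
Pdgfra: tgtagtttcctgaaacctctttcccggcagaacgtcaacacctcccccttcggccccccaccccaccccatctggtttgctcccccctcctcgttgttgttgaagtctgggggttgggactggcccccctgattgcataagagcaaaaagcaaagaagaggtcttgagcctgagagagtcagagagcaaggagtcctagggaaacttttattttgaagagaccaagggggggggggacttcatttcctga
Erbb2: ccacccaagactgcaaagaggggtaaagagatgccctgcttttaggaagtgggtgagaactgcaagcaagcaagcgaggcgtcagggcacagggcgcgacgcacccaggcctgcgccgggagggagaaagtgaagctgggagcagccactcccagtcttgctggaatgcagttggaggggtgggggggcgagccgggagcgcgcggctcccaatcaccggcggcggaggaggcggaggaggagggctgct

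The windows lie at chr11:16751953-16752202 (+) for *Egfr*, chr7:130266809-130267058 (-) for *Fgfr2*, chr13:55152568-55152817 (+) for *Fgfr4*, chr5:75152001-75152250 (+) for *Pdgfra* and chr11:98412234-98412483 (+) for *Erbb2*. A GC box was found 2 times in *Fgfr4*, 1 time in *Egfr* and 0 times in *Fgfr2*, *Pdgfra* and *Erbb2*, where 32.7% of 32851 promoter windows of the same length held one. No AP-1 pattern was found in these 5 windows, where 6.75% of all windows held one. The GC content was 60.8% in *Egfr*, 44.0% in *Fgfr2*, 64.0% in *Fgfr4*, 54.4% in *Pdgfra* and 66.0% in *Erbb2*, beside a median of 52.4% over all windows. Among the 4 higher receptors shown, a GC box was thus found in *Egfr* and *Fgfr4* only, all lacked the AP-1 pattern, and base composition varied. *Fgfr1*, the other higher receptor, had no entry in the sequence table. A match is a description of the letters and not a measured site.

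Ligands of the receptors were sparse on the panel. *Egf*, the only EGF family ligand measured, was at the common floor of 27.1 in every sample, as were 19 of 22 FGF genes. *Fgf11* was among those, though its recovered counts of 22, 27 and 22 in AKT/NRAS Cre siRNA lay above the deposited floor. The same held for AKT/NRAS Cre SCR replicate 1 (23). Of the 3 FGF genes tested, 2 were higher in AKT/NRAS Cre and 1 was lower under both treatments. *Fgf1*, the ligand that can bind all 4 FGF receptors, was lower (log2 fold change -1.15 under siRNA and -1.44 under SCR, limma adjusted p = 1.68e-06 and 1.03e-06), and *Fgf13*, an intracellular relative that is not secreted, was higher (1.26 and 1.27, limma adjusted p = 1.84e-05 and 1.03e-05). *Fgf18* had 46.6 to 68.1 normalized counts in AKT/NRAS Cre siRNA and 48.4 to 54.6 in AKT/NRAS Cre SCR, against 27.1 to 32.7 in AKT/NRAS siRNA and the common floor in all 3 AKT/NRAS SCR samples. Of the 4 PDGF genes, 2 were higher and 2 lower under siRNA, and 1 was higher and 2 lower under SCR. Among all tested genes 36.6% were higher and 37.9% lower under siRNA, and 28.9% higher and 48.0% lower under SCR. *Pdgfc*, a ligand of PDGFRA, was lower in AKT/NRAS Cre (-1.13 under siRNA and -1.24 under SCR, limma adjusted p = 1.08e-07 and 1.62e-06), against the direction of its receptor, and *Pdgfd*, a ligand of PDGFRB, was higher (0.70 and 1.11, limma adjusted p = 0.000254 and 1.24e-05).

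Of 12 other receptor tyrosine kinases on the panel, 7 were at the floor and 5 were tested, of which 1 was higher and 3 lower under siRNA (median log2 fold change -0.74) and 0 higher and 4 lower under SCR (median -1.02, and also 0 higher at an unadjusted p under 0.05). *Flt1*, a VEGF receptor, was lower (-1.11 under siRNA and -2.14 under SCR, limma adjusted p = 2.43e-05 and 2.68e-06). Of 13 tested adaptors and negative regulators, 5 were higher and 7 lower under siRNA (median -0.28), and 4 higher and 8 lower under SCR (median -0.75). The Sprouty genes, whose products dampen receptor signalling to ERK, were among the higher ones, with *Spry2* at 2.28 under siRNA and 2.07 under SCR and *Spry4* at 2.18 and 1.62 (limma adjusted p of 1.16e-07, 2.16e-07, 2.97e-07 and 4.39e-06). *Grb2*, the adaptor that links receptors to RAS, was lower under siRNA (-0.86, limma adjusted p = 1.36e-06), and *Sos1*, the exchange factor that it brings to RAS, was lower under SCR (-1.67, limma adjusted p = 1.15e-06). Of 17 core genes of the RAS to ERK and PI3K routes, 3 were higher and 9 lower under siRNA (median -0.11), and 0 higher and 11 lower under SCR (median -0.47). These counts stand beside 36.6% of all tested genes higher and 37.9% lower under siRNA, and 28.9% higher and 48.0% lower under SCR, and nothing particular to a list is read from them.

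The second question was what silencing of *Dusp4* did to the receptors, and it used the same libraries as the line comparisons, so the values of the 2 questions are not independent. In AKT/NRAS Cre, *Erbb2*, *Pdgfra*, *Fgfr4*, *Met* and *Fgfr2* rose by 0.40 to 0.57 on the log2 scale, in step with much of the panel, whose median shift was 0.23. In AKT/NRAS only *Fgfr4* rose among the 6 tested receptors, by 0.38, with no shift of the panel (median -0.03). In AKT/NRAS Cre 5 of 8 tested receptors passed as higher and 0 as lower by limma, where 40.6% of 503 tested genes were higher and 5.37% lower, and at an unadjusted p under 0.05 the counts were 5 and 0 too. In AKT/NRAS 1 of 6 was higher and 0 lower (2 and 0 at an unadjusted p under 0.05), where 5.44% of 496 tested genes were higher and 11.9% lower. The groups of 7 receptors in AKT/NRAS Cre and 2 in AKT/NRAS did not overlap, beside 60.0% and 34.7% of tested genes.

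In AKT/NRAS Cre all 3 siRNA samples of *Erbb2* lay above all 3 SCR samples, and the log2 fold change was 0.57 (SE 0.13, limma adjusted p = 0.00809). *Met* rose by 0.40 (SE 0.08, limma adjusted p = 0.00587). These were the 2 receptors that kept their call without any single library, at 0.42 to 0.66 and 0.34 to 0.44, and both passed in 5 of 8 scalings. *Fgfr2* rose by 0.40 (SE 0.13, limma adjusted p = 0.0329), *Pdgfra* by 0.48 (SE 0.16, limma adjusted p = 0.0329) and *Fgfr4* by 0.42 (SE 0.15, limma adjusted p = 0.0457), each in 3 of 8 scalings. *Fgfr2* and *Pdgfra* lost their call without SCR replicate 2 or any 1 siRNA replicate (0.29 to 0.48 and 0.28 to 0.63 over the libraries left out), and *Fgfr4* also without SCR replicate 3 (0.28 to 0.53). *Egfr* (0.26, 95% interval -0.01 to 0.53), *Fgfr1* (0.27, -0.04 to 0.59) and *Fgfr3* (0.25, -0.04 to 0.54) did not pass. Same-numbered samples correlated weakly in their deviations from the group means in this comparison (r of 0.22, 0.12 and 0.23), and their pairing is uncertain. With the replicate number as a block *Egfr* passed as well (0.26, limma adjusted p = 0.0409).

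Set against the panel, less of this remained. Relative to the median of all tested genes, *Erbb2* was 0.34 higher after siRNA, *Pdgfra* 0.25, *Fgfr4* 0.19, *Met* 0.16, *Fgfr2* 0.16, *Fgfr1* 0.04, *Egfr* 0.03 and *Fgfr3* 0.02. That median itself ran from -0.10 to 0.67 over the 8 scalings. With each sample re-centred on its own median 0 of 8 receptors passed, where 32 of 510 tested genes were higher and 136 lower. With the values as deposited 0 of 8 passed, where only 1 of 530 tested genes did. At an unadjusted p under 0.05 the receptor count was 0 in both, beside 231 and 70 genes. Relative to *Met* in the same sample, *Erbb2* was the only receptor whose groups did not overlap, with log2 ratios of -2.31, -2.18 and -2.29 after siRNA against -2.34, -2.34 and -2.63 after SCR, a difference of 0.18 (exact two-sided permutation p = 0.10, the smallest possible). The *Rpl19* to *Polr2a* ratio differed between these same groups, as given above, and its part in the rises was not tested.

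**Figure D4:**
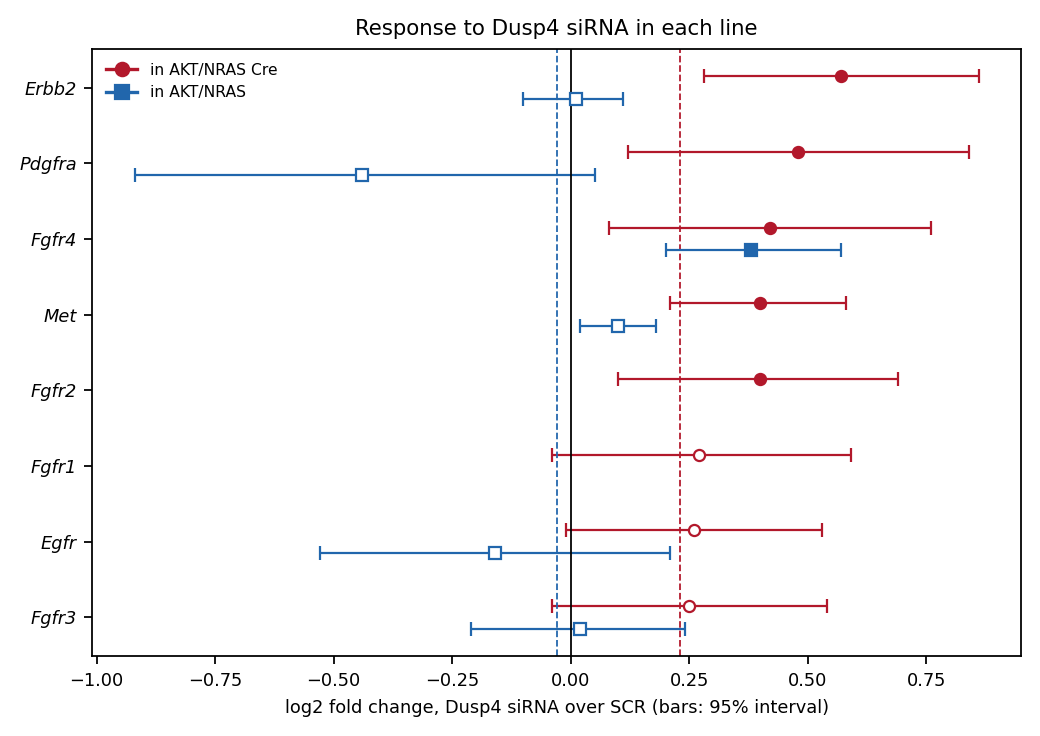
Log2 fold change of *Dusp4* siRNA over SCR for 8 receptors in AKT/NRAS Cre (red circles) and for 6 in AKT/NRAS (blue squares), with 95% intervals; filled symbols passed limma at an adjusted p under 0.05 and dashed lines are the medians of all tested genes, 0.23 in AKT/NRAS Cre and -0.03 in AKT/NRAS. All 8 red points lie at or to the right of the red dashed line, from 0.25 to 0.57, and *Fgfr4* is the only filled blue point.

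In AKT/NRAS the rise of *Fgfr4* was 0.38 (SE 0.08, limma adjusted p = 0.0168), with recovered counts of 45, 55 and 61 after siRNA against 38, 34 and 37 after SCR. The 95% counting intervals of single samples overlapped (32.8 to 60.2 for the lowest siRNA sample and 26.9 to 52.2 for the highest SCR sample). It passed in 7 of 8 scalings and lost its call without siRNA replicate 3 or SCR replicate 1 or 2 (0.33 to 0.44 over the libraries left out). Its log2 ratio to *Met* within a sample was 0.29 higher after siRNA, with no overlap of the groups (exact two-sided permutation p = 0.10). *Met* did not pass (0.10, SE 0.03, limma adjusted p = 0.0770), although its siRNA and SCR samples did not overlap. *Erbb2* (0.01, 95% interval -0.10 to 0.11), *Fgfr3* (0.02, -0.21 to 0.24), *Egfr* (-0.16, -0.53 to 0.21) and *Pdgfra* (-0.44, -0.92 to 0.05) did not pass either. For *Pdgfra* the 3 siRNA samples disagreed beyond counting error, with recovered counts of 33, 33 and 66 and 95% intervals of 22.7 to 46.3 for each of the lower samples and 51.0 to 84.0 for the other.

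The responses of the lines were then set against each other by the interaction term, the log2 fold change in AKT/NRAS Cre minus that in AKT/NRAS. It passed for 4 of 8 receptors, all positive, where 40.6% of 525 tested genes were positive and 4.76% negative, and its median was 0.35 for the receptors and 0.25 for all tested genes. The term was 0.92 for *Pdgfra* (SE 0.30, limma adjusted p = 0.0307), 0.56 for *Erbb2* (SE 0.15, limma adjusted p = 0.0120) and 0.30 for *Met* (SE 0.07, limma adjusted p = 0.00902). For *Fgfr2* it was 0.40 (limma adjusted p = 0.0419), but with every AKT/NRAS sample at the floor this is the response of AKT/NRAS Cre alone. With the replicate number as a block the term of *Fgfr2* lost its call (limma adjusted p = 0.0967) and that of *Egfr* passed (0.42, limma adjusted p = 0.0236). *Erbb2* and *Met* kept their call without any single library, while *Pdgfra* lost it in 7 of 12 such fits (0.72 to 1.15) and *Fgfr2* in 9 of 12. *Pdgfra*, *Erbb2* and *Met* passed in 4 of 7 scalings each, *Fgfr2* in 3, and *Met* turned negative in 2. *Fgfr4*, which rose in both lines, had a term of 0.03 (95% interval -0.35 to 0.41). *Dusp4* itself fell unequally, with a log2 fold change of -0.45 in AKT/NRAS Cre and -1.73 in AKT/NRAS. Every term also includes the AKT/NRAS Cre SCR libraries, whose *Rpl19* to *Polr2a* ratio stood apart (5.48 to 6.88). The part of either in the terms was not tested.

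**Figure D5:**
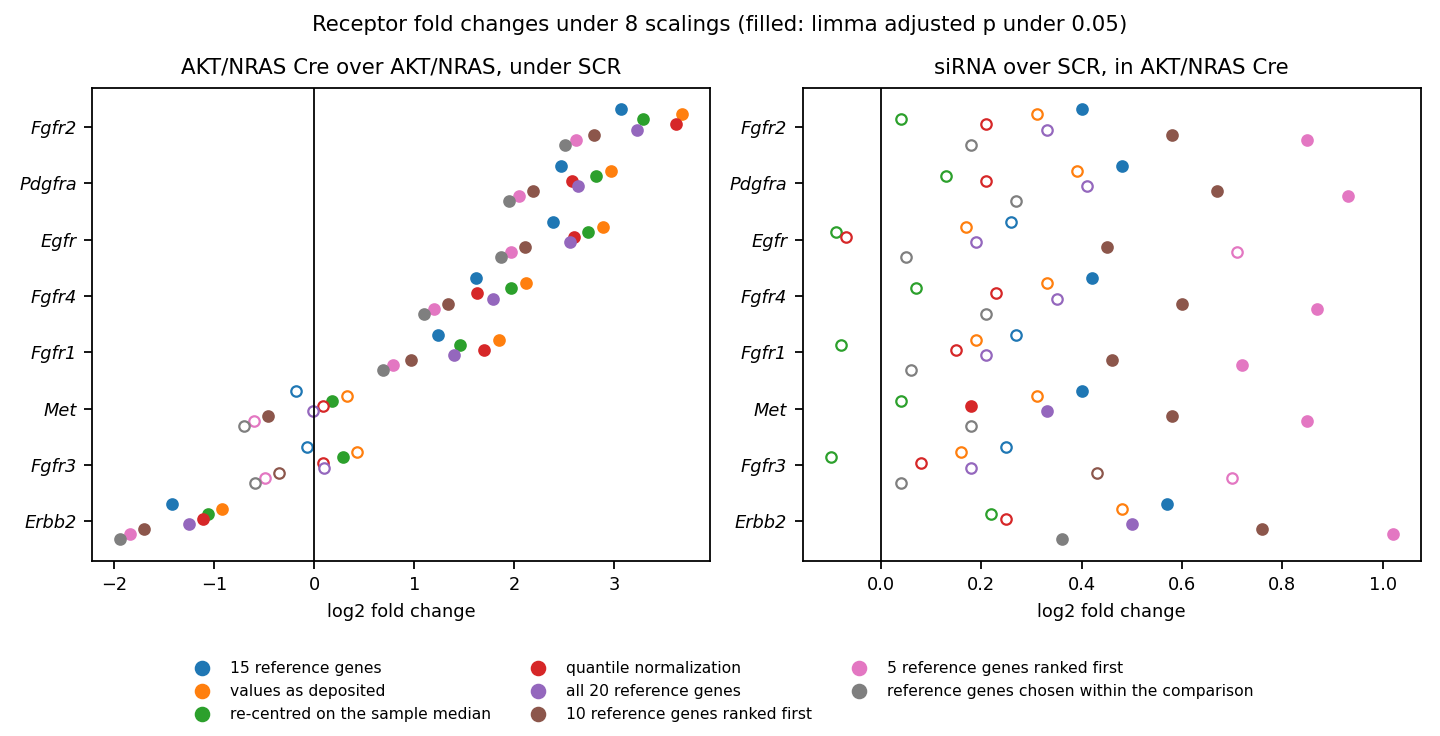
Log2 fold changes of 8 receptors under 8 scalings, for AKT/NRAS Cre over AKT/NRAS under SCR (left) and for siRNA over SCR in AKT/NRAS Cre (right); each colour is a scaling, and filled points passed limma at an adjusted p under 0.05. On the left *Egfr*, *Fgfr4*, *Pdgfra* and *Erbb2* are filled and on 1 side of 0 in all 8, while on the right no receptor is filled in more than 5. *Fgfr1* and *Fgfr2* are filled on the left too, but with every AKT/NRAS sample at the floor they could only lie to the right of 0.

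Genes around the receptors were described in the same way, beside the panel median of 0.23 and the 40.6% of tested genes that rose in AKT/NRAS Cre. Of the 5 other receptor tyrosine kinases tested, 4 rose (median 0.59), led by *Igf1r*, an insulin-like growth factor receptor (0.82, SE 0.13, limma adjusted p = 0.00329). Of 13 adaptors and negative regulators, 9 rose and 0 fell (9 and 0 at an unadjusted p under 0.05, median 0.41), among them *Cbl*, a ubiquitin ligase that marks active receptors for degradation (0.71, limma adjusted p = 0.00355), and *Nf1*, a RAS inactivator (0.67, limma adjusted p = 0.00355). Of 17 core genes 7 rose and 0 fell (10 and 0 unadjusted, median 0.28), a share near that of all genes. In AKT/NRAS, 0 of 12 adaptors passed in either direction (1 higher and 3 lower unadjusted), 1 of 5 other receptors fell and 4 of 17 core genes fell, beside 11.9% of tested genes.

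For the 6 receptors above the floor in all 12 samples, the genes with the most similar pattern over the 4 group means were sought among 446 such genes, by the mean absolute difference of the centred log2 means. *Egfr* was nearest to *Vegfc* (0.05), *Socs2* (0.10) and *Gata3* (0.12), and *Pdgfra* to *Egfr* (0.17), *Lifr* (0.18) and *Vegfc* (0.19). *Fgfr4* was nearest to *Eef1g* (0.15), *Vegfb* (0.15) and *Spry4* (0.18). *Erbb2* was nearest to *Fzd2* (0.03), *Ppp3ca* (0.03) and *Gsk3b* (0.04), *Met* to *Ctnnb1*, *Ppp2cb* and *Cdc25a* (0.04 each), and *Fgfr3* to *Smo* (0.02), *Fancf* (0.02) and *Ppp2cb* (0.04).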

How the data were processed

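Total RNA (100 ng per sample) of 12 cell samples was hybridised to the nCounter Mouse PanCancer Pathways panel, with 770 genes, 6 positive and 8 negative controls, and scanned at 555 fields of view. Per the methods, the authors used nSolver 4.0. What they deposited is a signal, read from its steps as each probe count multiplied by a sample's positive control factor, with anything at or under 20 raised to 20. Whole counts were recovered from it (tolerance 0.0051 signal units), but a count test was not run, because low counts are hidden.

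The methods also name reference genes, which the deposited signal was not yet scaled to. That scaling was done with geNorm over all 12 samples (15 of 20 reference genes kept), and anything below a common floor (27.1 after scaling) was set to it. A comparison left out genes that none of its samples held above the floor. Log2 values (pseudocount 1) were tested with limma 3.58.1 in R 4.3.3 with an intensity trend, on the samples of each comparison, with Benjamini-Hochberg adjustment over all tested genes and a threshold of 0.05. Lower bounds are mean log2 values over the common floor.

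The 10 receptors and all gene lists were chosen with earlier results of these data known. Named besides the receptors were *Dusp4*, *Akt1*, for each list the members of smallest p (up to 4), and the 3 genes nearest in pattern. *Rpl19*, *Polr2a* and single markers were singled out after their values were seen. Some markers are not reported here. The scripts were tested on simulated data. Counting intervals (95%, Poisson) cover counting error only, and with 3 samples against 3 no exact test goes below a p of 0.1.

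Same-numbered siRNA and SCR samples correlated weakly in their deviations from the group means in AKT/NRAS Cre (r of 0.22, 0.12 and 0.23). The numbers may thus pair them there, on the evidence of the data and not of the labels. In AKT/NRAS they did not (-0.08, -0.02 and -0.07). Between the lines r was 0.21, 0.03 and 0.16 under siRNA and -0.02, 0.01 and -0.05 under SCR. Correlations of similar size thus also arose between samples of different lines, so the pairing is uncertain. The main fits used no block. Alternatives were 7 other scalings, a pseudocount of 10, no filter, a mean of at least 100, no trend, 1 fit over all groups, Benjamini-Yekutieli adjustment, a replicate block and leaving out each library. Ratios to *Met* within a sample were added after the data had been seen. Plots used matplotlib 3.10.9 (Python 3.11.15).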

Additional observations from a re-analysis of the deposited data

Results flagged for a closer look

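The interaction term of line and *Dusp4* siRNA passed by limma for 4 receptors. The term was 0.92 for *Pdgfra* (limma adjusted p = 0.0307), 0.56 for *Erbb2* (0.012), 0.40 for *Fgfr2* (0.0419) and 0.30 for *Met* (0.00902), each positive. They were 4 of 8 tested receptors, where 40.6% of 525 tested genes had a positive term that passed, and the median term of all tested genes was 0.25. With values as deposited, re-centring on the sample median or quantile normalization 0 receptors passed (0, 1 and 0 at an unadjusted p under 0.05). Of all tested genes 32 of 551, 201 of 524 and 190 of 551 passed in these scalings. The *Pdgfra* term joins a rise of 0.48 in AKT/NRAS Cre with a change of -0.44 in AKT/NRAS that did not pass, and it lost its call without AKT/NRAS Cre siRNA replicate 1 or 2, AKT/NRAS Cre SCR replicate 3, AKT/NRAS siRNA replicate 1 or 2, or AKT/NRAS SCR replicate 1 or 3 (0.72 to 1.15 over all 12 libraries left out). For *Fgfr2* no response could be measured in AKT/NRAS, where the probe was at the floor. With the replicate block its term did not pass (limma adjusted p = 0.0967). The log2 fold change of *Dusp4* itself was -0.45 in AKT/NRAS Cre and -1.73 in AKT/NRAS. Every term also includes the AKT/NRAS Cre SCR libraries, whose *Rpl19* to *Polr2a* ratio stood apart (5.48 to 6.88). The part of either in the terms was not tested.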

How the results depend on the processing

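The line differences of *Egfr*, *Fgfr1*, *Fgfr2*, *Fgfr4*, *Pdgfra* and *Erbb2* kept their direction and call under every alternative in which they were tested. For *Fgfr1* and *Fgfr2*, at the floor in every AKT/NRAS sample, no other direction was possible. For *Met* the difference under SCR was 0.33, 0.18 and 0.092 with values as deposited, median re-centring and quantile normalization, for *Kitl* 0.28, 0.13 and 0.048, and for *Fgfr3* 0.43, 0.29 and 0.09, with 0.10 for all 20 reference genes and -0.14 to 0.011 without 1 library, positive without AKT/NRAS Cre SCR replicate 3 or AKT/NRAS SCR replicate 1. The cause of these turns was not tested.

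In AKT/NRAS Cre, 231 genes and 5 receptors were called after siRNA. The counts were 1 and 0 with values as deposited (70 genes and 0 receptors at an unadjusted p under 0.05), 90 and 1 with quantile normalization, 100 and 1 with reference genes chosen within the comparison, 56 and 1 with no filter and 70 and 1 with Benjamini-Yekutieli adjustment. They were 99 to 297 and 2 to 6 without 1 library, with both counts down by over 1.5 times without SCR replicate 2 or any siRNA replicate. Receptors called were 0 with median re-centring and 2 with all 20 reference genes, beside 168 and 161 called genes. *Egfr* was -0.093 with re-centring and -0.074 with quantile normalization, *Fgfr1* -0.076 and *Fgfr3* -0.10 with re-centring, and *Dusp4* 0.00098 with 5 reference genes.

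In AKT/NRAS, 86 genes and 1 receptor were called. The gene count was 290 with values as deposited, 45 with no filter, 23 in 1 fit over all groups, 10 with Benjamini-Yekutieli adjustment and 39 to 92 without 1 library, under 50 without siRNA replicate 3 or SCR replicate 1 or 2. Receptors called were 4 with values as deposited, 2 with re-centring, 0 with quantile normalization, 1 fit over all groups, Benjamini-Yekutieli adjustment or a mean of at least 100 (which left 3 tested), and 0 to 1 without 1 library, with 1 or 2 receptors at an unadjusted p under 0.05 in these. *Egfr* was 0.17 with values as deposited. *Erbb2* was -0.031 and -0.026 and *Fgfr3* -0.020 and -0.015 with 10 and 5 reference genes, and without 1 library they ran from -0.036 to 0.036 and from -0.051 to 0.094.

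For the interaction, 238 genes and 4 receptors were called. The gene count was 32 with values as deposited, 201 with re-centring, 190 with quantile normalization, 101 with Benjamini-Yekutieli adjustment and 176 to 307 without 1 library. Receptors called were 0 with values as deposited, re-centring, quantile normalization or Benjamini-Yekutieli adjustment (0, 1, 0 and 4 at an unadjusted p under 0.05), 7 with 5 reference genes, 2 with no filter and 2 to 5 without 1 library (2 without AKT/NRAS Cre siRNA replicate 2, AKT/NRAS Cre SCR replicate 3, AKT/NRAS siRNA replicate 1 or 2, or AKT/NRAS SCR replicate 1 or 3). With values as deposited and re-centring *Met* was -0.13 and -0.12, *Fgfr3* -0.19 and -0.18 and *Fgfr4* -0.38 and -0.38. *Fgfr1* was -0.076 with re-centring. *Fgfr4* was also -0.076 with quantile normalization, -0.037 with all 20 reference genes and -0.10 to 0.15 without 1 library. Reference genes chosen within the comparison and 1 fit over all groups were not run apart for the interaction, which already uses all 12 samples.

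The replicate block gave 263 called genes and 6 receptors in AKT/NRAS Cre, 73 and 1 in AKT/NRAS, 397 and 6 between the lines under SCR and 404 and 7 under siRNA. Besides *Egfr* in AKT/NRAS Cre and the interaction terms of *Egfr* and *Fgfr2*, it changed no other call of a receptor. Low counts limit *Fgfr4* and *Pdgfra* in AKT/NRAS, with 33 to 66 recovered counts, and levels under the floor are not known.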
